A study of Homo sapiens with 3 samples.

Results

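The transcripts examined were those of 9 genes that ERK signalling is known to induce: the MAP kinase phosphatase genes DUSP1, DUSP4, DUSP5 and DUSP6, the Sprouty gene SPRY2, the ETS factor genes ETV4 and ETV5, and the response genes IER3 and PHLDA1. They were chosen by name, with earlier results of these data known, and all 19 probe sets annotated to them were taken from an Affymetrix array of 22283 probe sets. The 9 are among 11963 genes that had a probe set of their own, and 8 of the 9 were measured, meaning that the probe set used for the gene exceeded a floor of 28.3 signal units (the pooled median after scaling) on at least 1 array. SPRY2 was the exception.

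The RNA came from CAL 27, a cell line from a squamous carcinoma of the tongue, poorly differentiated (grade G3). Its cells carried 1 of 3 stably transfected constructs: empty pEGFPC1 (vector, overexpressing GFP alone), pEGFPC1-nm23-H1 (overexpressing a GFP fusion of Nm23-H1) or pEGFPC1-nm23-H2 (overexpressing Nm23-H2). All were grown with 10% fetal bovine serum, and no treatment or time course was described. The design text speaks of clones for nm23-H1 and of 1 clone for the vector, and does not mention nm23-H2, so construct and clone cannot be told apart. Each group was 1 array without a replicate, so no difference had a test across samples and no p-value was computed. The only error available was how far probe sets of 1 gene disagreed, here called the probe error. Its SD on the log2 scale was 0.32 when nm23-H1 was compared with vector, 0.35 when nm23-H2 was, and 0.39 between the nm23-H1 and nm23-H2 arrays. It covers neither cultures nor hybridisations. In bulk RNA, fewer cells making a transcript and less transcript per cell give the same signal.

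Growth factor receptors such as the EGF receptor, a main input in squamous carcinoma, activate RAS, RAF, MEK and ERK in turn. ERK then switches on genes through ETS and serum response factors, and several of their products act back on the cascade: MAP kinase phosphatases remove the activating phosphates from ERK, and Sprouty proteins act between the receptor and RAF. Because their transcription follows recent ERK activity, such transcripts are widely used as a readout of it. Nm23-H1, a nucleoside diphosphate kinase encoded by NME1, has been described elsewhere as binding and phosphorylating KSR, a scaffold of the ERK cascade.

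To show what precedes the genes that were measured, the promoter windows of RefSeq (build GRCh38.p14) were read for the 250 bases before the start site. The table held windows for 4 of the 9 genes, DUSP1, DUSP6, PHLDA1 and SPRY2. The first 3 are printed because they were the members with a window that were measured. Each is on the minus strand, written 5′ to 3′, and capitals mark matches to the motifs searched other than GGGCGG.
DUSP1, chr5:172771196-172771445: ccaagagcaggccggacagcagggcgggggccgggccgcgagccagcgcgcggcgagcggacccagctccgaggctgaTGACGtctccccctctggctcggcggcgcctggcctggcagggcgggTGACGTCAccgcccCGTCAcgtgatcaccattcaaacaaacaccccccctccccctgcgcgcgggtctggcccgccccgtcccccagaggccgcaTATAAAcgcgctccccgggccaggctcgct
DUSP6, chr12:89352502-89352751: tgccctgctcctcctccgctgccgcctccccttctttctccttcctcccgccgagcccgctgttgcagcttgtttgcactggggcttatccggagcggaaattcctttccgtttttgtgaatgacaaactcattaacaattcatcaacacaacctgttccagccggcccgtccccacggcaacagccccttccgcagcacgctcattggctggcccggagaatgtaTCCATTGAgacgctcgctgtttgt
PHLDA1, chr12:76031777-76032026: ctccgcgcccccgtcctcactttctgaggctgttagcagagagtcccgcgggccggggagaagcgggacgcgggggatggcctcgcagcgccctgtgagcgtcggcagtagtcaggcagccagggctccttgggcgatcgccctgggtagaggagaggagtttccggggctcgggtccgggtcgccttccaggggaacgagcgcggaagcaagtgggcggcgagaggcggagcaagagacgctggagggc
The DUSP1 window held the cyclic AMP response element TGACGTCA, first base 125 bases before the start, and the TATA sequence TATAAA 30 bases before it. TGACGTCA was in 1.65% and TATAAA in 10.7% of all 35116 windows of this length. The core TGACG had 4 matches in the DUSP1 window, 2 of them overlapping TGACGTCA, and occurred in 21.2% of windows. The DUSP6 window held TCAATGGA, read on the opposite strand 24 bases before the start, an octamer of the kind bound by Capicua, a repressor that ERK inactivates, and 0.436% of windows held it. The related octamers TGAATGAA, TGAATGGA and TCAATGAA (1.40%, 0.832% and 0.635% of windows) were in none of the 3. The same was true of the AP-1 sequence TGANTCA (6.57%), the ETS sequence CCGGAAGT (3.42%), the CArG box of serum response factor (1.16%) and the NF-kB motif (9.96%). The GC box GGGCGG (42.6%) had 4 matches for DUSP1, 1 for PHLDA1 and 0 for DUSP6. Both strands were searched, and a match is a description of letters in these windows.

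The ERK-induced transcripts were lowest on the nm23-H1 array and, apart from ETV4, highest on the nm23-H2 array by the probe set used for each of the 8 measured genes. The order with nm23-H1 was not kept by other probe set rules for a pair of them: ETV5 differed from vector by 0.20 by the median of its probe sets, and PHLDA1 by 0.09 by the mean and 0.30 by the median. With nm23-H1, 3 of the 8 were at least 2-fold lower than with vector (DUSP6, ETV4 and DUSP5) and 0 were at least 2-fold higher, against 1.71% lower and 2.16% higher among all 8000 genes measured. With nm23-H2, 5 of the 8 were at least 2-fold higher than with vector (PHLDA1, IER3, DUSP1, DUSP4 and DUSP6) and 0 at least 2-fold lower, against 3.54% higher and 3.62% lower. Set directly against nm23-H2, all 8 were at least 2-fold lower with nm23-H1 and 0 higher, where 3.74% of all genes were lower and 3.74% higher. In that comparison 6 of the 8 were 2-fold lower by the mean of all probe sets, 7 by the median of those above the floor and 6 with the floor at the 70th percentile. As the genes were picked with earlier results in view, the shares of all genes are given for scale only. The 8 had a median log2 difference from vector of -0.57 with nm23-H1 and 1.30 with nm23-H2, and of -2.12 between the nm23-H1 and nm23-H2 arrays, beside 0, -0.06 and 0.08 over all genes. The comparisons with vector share the vector array, and the third is made of the same 3 arrays, so they are not separate pieces of evidence. All 8 exceeded the floor on the vector array as well as on the nm23-H2 array, so none entered through 1 array alone. DUSP4 and ETV4 were under the floor with nm23-H1 and so had to be lowest there. Their direction in the comparisons with nm23-H1 therefore adds nothing to the counts above.

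**Figure D1:**
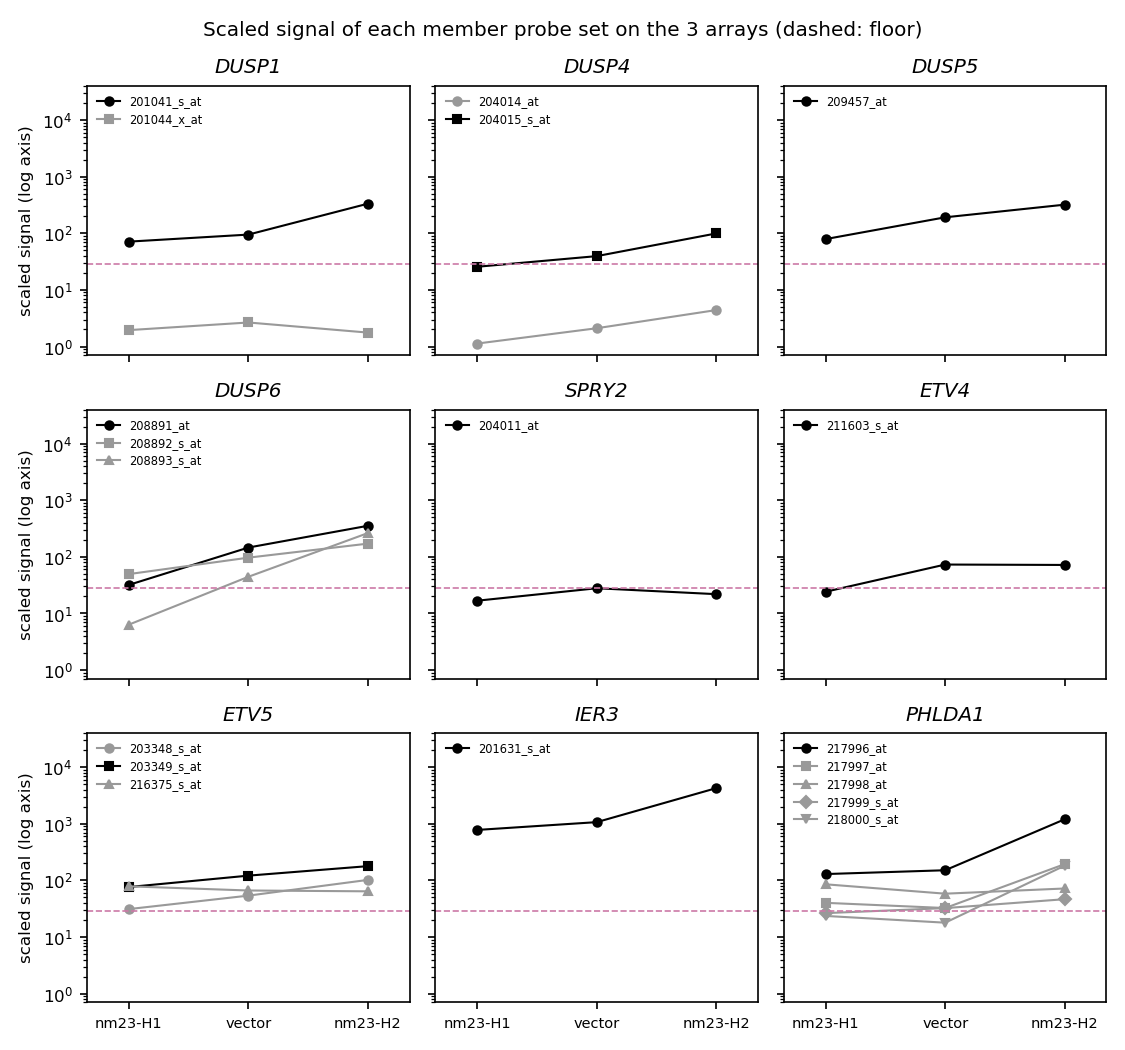
Scaled signal (log axis) of the 19 probe sets of the 9 genes on the nm23-H1, vector and nm23-H2 arrays; black is the probe set used for the gene, grey the others, and the dashed line the floor of 28.3 signal units. DUSP6 goes from 32.0 through 146 to 354 and IER3 from 780 through 1071 to 4271, while the SPRY2 probe set is under the floor on all 3 arrays.

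Among the phosphatases, DUSP6, the cytoplasmic phosphatase selective for ERK, differed most between the arrays. Its brightest probe set, 208891_at, read 32.0 signal units with nm23-H1, 146 with vector and 354 with nm23-H2. It was thus barely above the floor with nm23-H1, 4.57-fold lower than with vector, while nm23-H2 was 2.42-fold above vector. On the log2 scale the difference from vector was -2.19, or -6.75 probe error SDs, rank 9 from the lowest of the 8000 genes. The probe set 208892_s_at gave 49.6, 96.9 and 171 signal units in the same order of arrays. Its folds were smaller, 1.95-fold lower with nm23-H1 and 1.77-fold higher with nm23-H2. The probe set 208893_s_at gave 6.36, 44.5 and 263 signal units, which was at least 1.57-fold lower with nm23-H1, where it was under the floor, and 5.91-fold higher with nm23-H2. All 3 therefore had the same order of arrays and differed in size, from -0.65 (a bound) to -2.19 for nm23-H1 and from 0.82 to 2.56 for nm23-H2. The -6.75 probe error SDs take no account of this spread. Whether DUSP6 passed 2-fold with nm23-H1 rested on the probe set: with the nm23-H2 array left out of the choice, 208892_s_at became the brightest and the difference was -0.96.

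DUSP5, a nuclear phosphatase that also acts on ERK alone, had 1 probe set, which read 79.1 signal units with nm23-H1, 192 with vector and 320 with nm23-H2. It was 2.42-fold lower with nm23-H1, a log2 difference of -1.28 or -3.93 probe error SDs, and 1.67-fold higher with nm23-H2. The deposited, unscaled values put the nm23-H2 difference past 2-fold (1.07), and under that setting the median over all genes in that comparison was 0.17. DUSP1 and DUSP4 are nuclear phosphatases that also act on the stress kinases JNK and p38. DUSP1 gave 71.3, 94.9 and 334 signal units on the nm23-H1, vector and nm23-H2 arrays by 201041_s_at. The vector and nm23-H1 arrays lay 1.33-fold apart, a log2 difference of -0.41 or -1.27 probe error SDs, and the nm23-H2 array stood 3.52-fold above vector. Its second probe set, 201044_x_at, of a kind whose probes may match other transcripts, gave 1.95, 2.66 and 1.76, all under the floor. Averaging both probe sets, the second held at the floor, brought the nm23-H2 difference of DUSP1 to 0.91, under 2-fold.

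DUSP4 lay near the floor, reading 25.6 signal units with nm23-H1, 39.5 with vector and 99.5 with nm23-H2 by 204015_s_at. The nm23-H1 value was under the floor, so DUSP4 was at least 1.39-fold lower there. With nm23-H2 it was 2.52-fold higher than with vector, and with the floor raised to the 70th percentile (66.2 signal units) that log2 difference was 0.59, under 2-fold, as was the mean of its probe sets (0.67). Against nm23-H2 the nm23-H1 difference of DUSP4, at least 3.51-fold, was also under 2-fold by that floor (-0.59) and that mean (-0.91). Its other probe set, 204014_at, gave 1.13, 2.10 and 4.40 signal units, all far under the floor. SPRY2, the Sprouty inhibitor of receptor signalling, could not be read: its 1 probe set gave 16.8, 27.9 and 21.9 signal units on the nm23-H1, vector and nm23-H2 arrays, all under the floor. With the floor lowered to the 25th percentile (8.20 signal units) SPRY2 differed from vector by -0.73 with nm23-H1 and -0.35 with nm23-H2.

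The ETS factor genes ETV4 and ETV5 encode PEA3-family activators that carry ERK signals to transcription. The 1 probe set of ETV4 read 24.2 signal units with nm23-H1, 73.2 with vector and 72.0 with nm23-H2. The vector and nm23-H2 arrays were within 1.02-fold of each other, and the nm23-H1 array, under the floor, was at least 2.58-fold below vector. ETV4 was thus low on the nm23-H1 array, with the other arrays level. The sign of its small nm23-H2 difference depended on scaling, from -0.02 to 0.31. A floor at the 70th percentile brought the nm23-H1 difference to -0.14 from vector and -0.12 from nm23-H2, because the vector and nm23-H2 signals were themselves only just above that floor.

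ETV5 gave 76.5, 122 and 179 signal units on the nm23-H1, vector and nm23-H2 arrays by 203349_s_at, 1.59-fold lower and 1.47-fold higher than vector. Its probe set 203348_s_at gave 31.2, 53.9 and 102 signal units, 1.73-fold lower and 1.90-fold higher. Both have the order of DUSP6 without reaching 2-fold from vector. The third, 216375_s_at, went the other way, with 78.7, 66.4 and 64.2 signal units and log2 differences from vector of 0.24 and -0.05, each under 1 probe error SD. By the mean of its 3 probe sets ETV5 differed between nm23-H1 and nm23-H2 by -0.88, and by their median by -0.42, so its 2-fold difference there depended on the probe set.

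IER3, an immediate early gene whose product modulates ERK signalling and cell survival, had 1 probe set, which read 780 signal units with nm23-H1, 1071 with vector and 4271 with nm23-H2. The nm23-H1 and vector arrays were 1.37-fold apart (-0.46 log2, or -1.41 probe error SDs). The nm23-H2 array was 3.99-fold above vector, rank 32 from the highest of 8000 genes. All 9 alternative settings that gave IER3 a value kept this difference, between 1.87 and 2.33.

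PHLDA1, a pleckstrin homology-like domain gene that follows MEK activity closely in tumour cells, showed the largest nm23-H2 difference of the 8. By 217996_at it read 130 signal units with nm23-H1, 151 with vector and 1203 with nm23-H2, 7.95-fold above vector and rank 6 from the highest. The nm23-H1 array was 1.17-fold below vector, a log2 difference of -0.22 or -0.69 probe error SDs. Of its 4 other probe sets, 217997_at gave 40.2, 32.5 and 194 signal units, and 218000_s_at gave 23.6, 17.9 and 182. Those were 5.97-fold and at least 6.44-fold higher with nm23-H2. The remaining pair stayed under 2-fold in both comparisons with vector: 217998_at gave 85.4, 58.3 and 72.1 signal units and 217999_s_at gave 26.5, 32.4 and 46.6. The nm23-H2 differences of PHLDA1 thus spanned 0.30 to 2.99 by probe set, and those of nm23-H1 spanned -0.22 to 0.55.

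**Figure D2:**
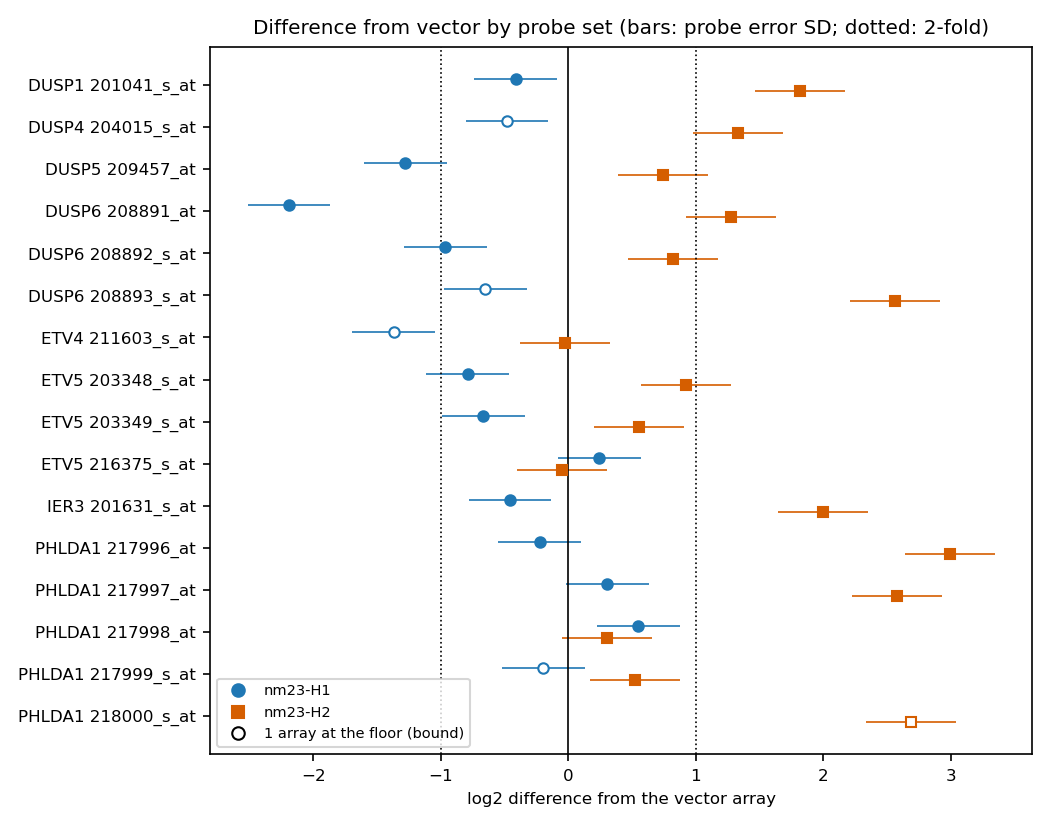
Log2 difference from the vector array for each member probe set above the floor on at least 1 array, with nm23-H1 as circles and nm23-H2 as squares; bars are 1 probe error SD, open symbols are bounds, dotted lines mark 2-fold. For nm23-H1, PHLDA1 spans -0.22 to 0.55 and DUSP6 -2.19 to -0.65, the last a bound. For nm23-H2, PHLDA1 spans 0.30 to 2.99 and DUSP6 0.82 to 2.56.

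Counted by probe set rather than by gene, 16 of the 19 exceeded the floor somewhere. Between nm23-H1 and vector 15 gave a difference, with a median of -0.48, itself the bound of DUSP4. These 15 all exceeded the floor on the vector array. Of them, 4 were under the floor with nm23-H1 and so had to be lower there. With nm23-H2, 218000_s_at of PHLDA1 exceeded the floor only on that array and so had to be higher there. No count of directions is therefore given for either comparison. The probe sets above vector with nm23-H1 were 1 of ETV5 and 2 of PHLDA1. Probe sets of 1 gene share its RNA and are not replicates.

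**Figure D3:**
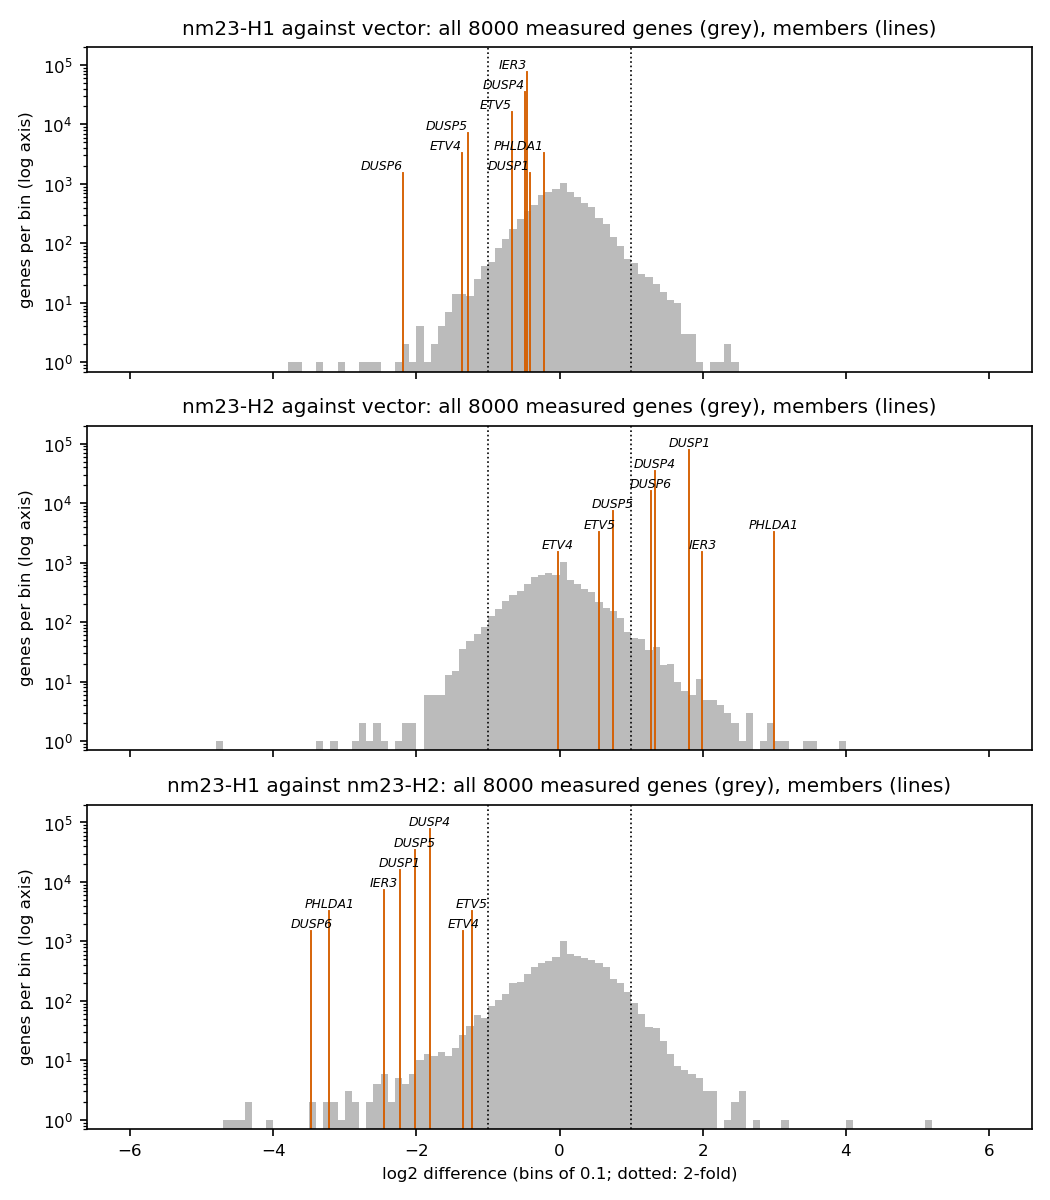
Distribution of the log2 differences of all 8000 measured genes (grey bars, genes per bin of 0.1, log axis) for the 3 comparisons, with the 8 measured members as labelled lines and 2-fold as dotted lines. With nm23-H1 against vector the members lie between -2.19 and -0.22, with nm23-H2 against vector between -0.02 and 2.99, and with nm23-H1 against nm23-H2 between -3.47 and -1.22.

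Sorted by 2-fold alone, DUSP6 was past it on both arrays, lower with nm23-H1 and higher with nm23-H2. DUSP5 and ETV4 were past it with nm23-H1 and not with nm23-H2. PHLDA1, IER3, DUSP1 and DUSP4 were past it with nm23-H2 and not with nm23-H1, where their differences were -0.22, -0.46, -0.41 and -0.48, the last a bound. ETV5 was past it on neither, at -0.67 and 0.56. Whether the genes differ in this was not tested, since there was 1 array per construct.

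Around these genes, the transcripts of the cascade itself were mostly level. Of 31 listed genes from receptor to ERK and its substrates, 25 had a probe set of their own and 22 were measured. With nm23-H1, 1 was at least 2-fold higher and 0 lower (median 0.05), and with nm23-H2, 2 were higher and 0 lower (median 0). EGFR, the EGF receptor, gave 1149, 1218 and 1239 signal units on the nm23-H1, vector and nm23-H2 arrays by its brightest probe set, while its others differed from vector by -0.19 to 1.04 with nm23-H1 and by -0.45 to 0.72 with nm23-H2. MAP2K1, which encodes MEK, gave 241, 280 and 318. The genes past 2-fold were SOS1, a RAS activator (67.1 signal units with nm23-H1, under the floor on the other arrays), MAPK3, an ERK gene (69.7, 35.9 and 80.0), and RPS6KA3, a kinase that ERK activates (31.6, 30.9 and 62.6). The 1 probe set of MAPK3 is of the _x_at kind, whose probes may match other transcripts. Both MAPK3 and RPS6KA3 read near the floor with vector. SOS1, the 1 gene counted as higher with nm23-H1, exceeded the floor only on that array and so could not be lower there. MKNK2, a kinase downstream of ERK, was 1.66-fold higher with nm23-H2. KSR1, the scaffold, was under the floor on all 3 arrays by the probe set used.

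Other MAP kinase phosphatase and upstream inhibitor genes that were measured, not all of them selective for ERK, stayed within 2-fold of vector. Of 13 listed, 10 had a probe set of their own and 8 were measured. Of these 8, 0 were at least 2-fold higher or lower in either comparison with vector, with medians of 0.07 for nm23-H1 and -0.12 for nm23-H2. SPRY4, a Sprouty gene, read 89.4 signal units with nm23-H1, 74.9 with vector and 55.6 with nm23-H2, the opposite order to DUSP6. SPRED2, a Sprouty-related inhibitor, gave 43.2, 71.0 and 44.1, lower with both constructs by less than 2-fold. DUSP7, a phosphatase close to DUSP6, differed from vector by -0.30 and 0.37, and DUSP9, of the same subfamily, by 0.67 and -0.08.

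Other transcripts described elsewhere as raised by MEK and ERK were mixed. Of 21 listed, 20 had a probe set of their own and 15 were measured. With nm23-H1, 1 was at least 2-fold lower, TRIB2, a pseudokinase gene (2.76-fold, though its other probe set differed by -0.10), and 0 were higher. The median there was -0.34, and 11 of the 15 lay below 0, where 3820 of all 8000 genes did. With nm23-H2, 8 of the 15 lay above 0, where 3200 of all 8000 genes did. On that array 2 were at least 2-fold higher, 0 lower, and the median was 0.11. The 2 were FOSL1, an AP-1 subunit with 240, 477 and 2291 signal units on the nm23-H1, vector and nm23-H2 arrays, and SERPINB1, a protease inhibitor with 164, 202 and 1270. IER2, an immediate early gene, was below vector on both arrays, by -0.80 and -0.96. EGR1, an immediate early transcription factor, gave 202, 256 and 380 signal units on the nm23-H1, vector and nm23-H2 arrays, in the order of DUSP6 and under 2-fold, and its other probe set differed from vector by -0.75 and 0.42. CCND1, cyclin D1, gave 190, 197 and 214. KANK1, of the same list, gave 104, 59.9 and 42.0, the opposite order to DUSP6. FOS was under the floor on all 3 arrays.

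Of 8 listed ligands of receptors upstream of ERK, 7 had a probe set of their own and 3 were measured. All 3 were at least 2-fold higher with nm23-H2, while 1 was at least 2-fold lower with nm23-H1. Over all genes measured 3.54% were higher with nm23-H2 and 1.71% lower with nm23-H1. The list was drawn up with earlier results of these data known. HBEGF, an EGF receptor ligand and itself an ERK-induced gene, read 9.74 signal units with nm23-H1, 113 with vector and 729 with nm23-H2. It was at least 3.99-fold lower and 6.45-fold higher, and its other probe set above the floor differed by -0.84 and 3.10. NRG1, neuregulin, gave 242, 244 and 811, and its other probe sets differed by 0.03 to 1.62 with nm23-H2, the last a bound. TGFA, transforming growth factor alpha, gave 66.9, 77.5 and 160. Another of its probe sets exceeded the floor only on the vector array, so its log2 difference of -0.98 with either construct is a bound.

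**Figure D4:**
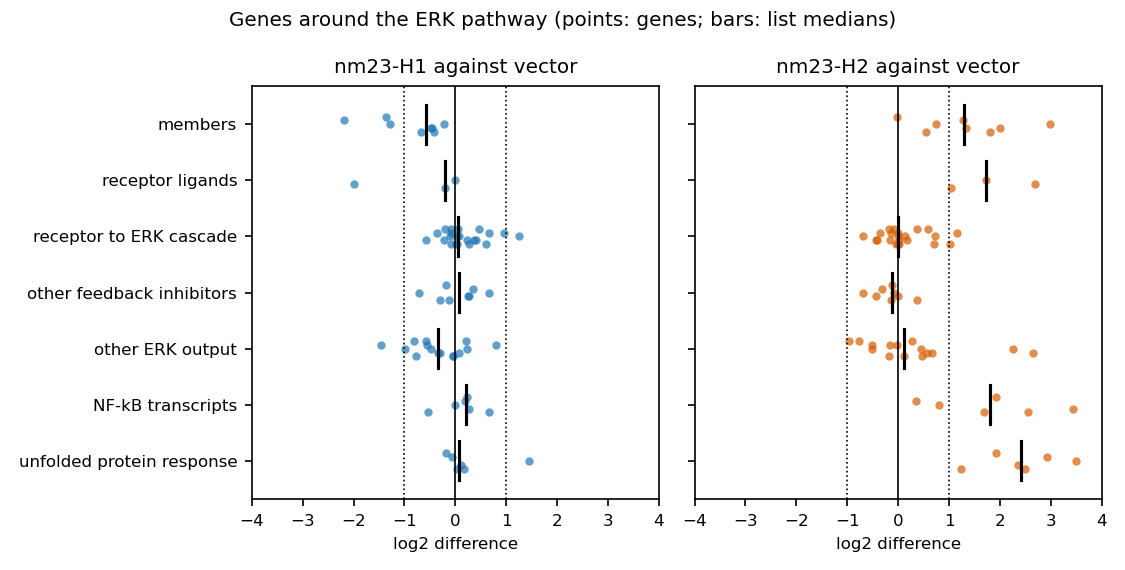
Log2 difference from vector of measured genes (points) in the member list and 6 lists around it, with nm23-H1 on the left and nm23-H2 on the right; black bars are list medians and dotted lines mark 2-fold. The cascade and the other feedback inhibitors centre between -0.12 and 0.07, whereas with nm23-H2 the members, ligands, NF-kB and unfolded protein lists have medians of 1.30 to 2.42.

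Several members, IER3 and DUSP1 among them, are also induced by NF-kB or by cell stress, and transcripts of both responses were also higher on the nm23-H2 array. Of 7 listed NF-kB transcripts, 6 had a probe set of their own and all 6 were measured. With nm23-H2, 4 were at least 2-fold higher and 0 lower (median 1.80, range 0.35 to 3.44). Over all genes measured 3.54% were higher and 3.62% lower with nm23-H2. CXCL8, among the 6, read 3.79 signal units with nm23-H1, 3.76 with vector and 49.2 with nm23-H2. It exceeded the floor only on the nm23-H2 array and so could not be lower there. Its other probe set differed from vector by at least 4.11 with nm23-H2. NFKBIA, the NF-kB inhibitor, gave 289, 419 and 1345 signal units on the nm23-H1, vector and nm23-H2 arrays, and TNFAIP3, a target that limits NF-kB, gave 52.5, 43.6 and 475. RELB, an NF-kB subunit, and TNIP1, a partner of TNFAIP3, differed from vector by 1.92 and 2.56 with nm23-H2. Of the 6 listed unfolded protein and ATF4 transcripts all were measured and all were at least 2-fold higher with nm23-H2 (median 2.42, range 1.24 to 3.50), among them HSPA5, the chaperone BiP, with 818, 757 and 3865. DDIT3, TRIB3 and HERPUD1, stress-induced genes, differed from vector by 2.50, 3.50 and 2.92 with nm23-H2. With nm23-H1 the NF-kB list had a median of 0.21 with 0 genes 2-fold different, and the unfolded protein list 0.07 with TRIB3 alone at least 2-fold higher. Both lists were drawn up with earlier results of these data known, so the shares of all genes are given for scale only. The part of either response in the member values was not tested.

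The measured genes outside the 9 whose pair of differences from vector lay nearest to the member medians (-0.57 and 1.30), among 5026 genes of sufficient signal, were ZFP36, CDKN1A, PPP1R15A and TFE3. Their differences with nm23-H1 and nm23-H2 were -0.56 and 1.35 for ZFP36, -0.60 and 1.35 for CDKN1A, -0.65 and 1.37 for PPP1R15A and -0.47 and 1.29 for TFE3. ZFP36 encodes an mRNA-destabilising protein, CDKN1A the cell cycle inhibitor p21, PPP1R15A the stress-induced phosphatase subunit GADD34 and TFE3 a transcription factor. With 3 arrays a pattern is only a pair of numbers, so likeness here is a description.

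The deposited medians of the arrays were 26.5 to 29.6 signal units and 47.4% to 51.6% of probe sets exceeded the floor. As the floor was the pooled median, shares near 50% follow from its choice and are not detection rates. NME1 gave 2379 signal units with nm23-H1, 1519 with vector and 1132 with nm23-H2, and the probe set annotated to both NME2 and its read-through with NME1 gave 2323, 2272 and 4845, so each transfected gene was highest on its own array. Of 10 squamous epithelial markers 7 had a probe set of their own in the annotation used, and all 7 were measured. KRT5, a basal keratin, read 8543 to 11699 signal units. By the probe set used, 0 of the 7 differed from vector by 2-fold. CDH1, EPCAM, SFN and PKP1 differed from vector by -0.50, 0.0066, -0.41 and -0.71 with nm23-H1 and by 0.12, -0.48, 0.63 and -0.73 with nm23-H2. The other probe sets of SFN differed by -0.45 to -0.41 with nm23-H1 and by 0.81 to 1.34 with nm23-H2. Of the fibroblast, leukocyte and endothelial markers, COL1A1, PTPRC and VWF were under the floor on all 3 arrays by the probe set used, and 5 of 6, 3 of 5 and 2 of 3 listed were not measured. The 4 that were measured read, with nm23-H1, vector and nm23-H2, 39.0, 27.6 and 31.7 for COL1A2 of fibroblasts, 50.1, 23.5 and 18.6 for CD14 and 34.0, 49.7 and 5.20 for CD3D of leukocytes, and 43.6, 35.3 and 21.9 for PECAM1 of endothelium. CD14 was thus at least 1.77-fold higher with nm23-H1 and CD3D at least 1.75-fold lower with nm23-H2, both near the floor. Their part in the member values was not tested. Scaling set the balance of 2-fold calls over all genes. With the values as deposited, nm23-H1 had 212 genes higher and 92 lower than vector (173 and 137 after scaling). For nm23-H2 these were 630 and 108 (283 and 290). Between nm23-H1 and nm23-H2 they were 172 and 494 (299 and 299).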

How the data were processed

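Total RNA of 3 CAL 27 transfectants was hybridised to 1 Affymetrix array each. The authors deposited linear signal intensity values per probe set, made with MAS5 per the submitters' processing notes; its version, scaling target and detection calls are not given in the sources used here. Each array was multiplied (0.881 to 1.11) to bring its mean between the 2nd and 98th percentiles to a common value, any value below 28.3, the median of all scaled values, was raised to it (the floor) before taking log2. Folds against a floored array are bounds. A gene was represented by its brightest probe set, those ending in _x_at last, among 19071 with 1 symbol; 1043 had several and 2169 none. Symbols, updated by gene ID, and promoters came from the reference tables. The number of arrays limits the precision.

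Probe error is the SD of the difference between log2 differences of a gene's brightest 2 probe sets (1641 to 1758 genes), divided by the square root of 2. Genes named were all members, up to 4 per list by largest difference from vector, NME1, NME2 and the 4 nearest patterns. EGFR, MAP2K1, KSR1, CCND1, EGR1, KANK1, FOS, CXCL8, KRT5, COL1A1, PTPRC and VWF were added after their values were seen. Members and lists were chosen with earlier results of these data known. Alternatives, 10 planned and 1 added after seeing the data, changed scaling, floor, probe set or threshold. The steps were tested on simulated data. Python 3.11.15, numpy 2.4.6, pandas 2.3.3 and matplotlib 3.10.9 were used.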

Additional observations from a re-analysis of the deposited data

How the results depend on the processing

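Each measured member had a value under 9 or 10 of the 11 alternatives, and its 2-fold differences kept their sign in these. Smaller ones did not: ETV5 with nm23-H1 reached 0.20, PHLDA1 with nm23-H1 reached 0.09 and 0.30, and ETV4 with nm23-H2 was above 0 in 3 of 9. Of the values of single members under them, 200 moved by less than 1 probe error SD and 25 by more. The counts and medians that moved further did so with another probe set rule. Averaging every probe set of a gene left 3 members at least 2-fold higher with nm23-H2 than with vector in place of 5, with a median of 0.82, and gave a median of -1.54 between nm23-H1 and nm23-H2, where 6 of 8 were 2-fold lower. With probe sets specific by name only 3 members had a value (DUSP5, DUSP6 and PHLDA1): 2 were higher with nm23-H2 than with vector, 3 were lower with nm23-H1 than with nm23-H2, and nm23-H1 had medians of -1.28 from vector and -3.21 from nm23-H2. The mean also took DUSP1 with nm23-H2 to 0.91 and DUSP4 to 0.67. A floor at the 70th percentile left 2, 4 and 6 members past 2-fold in the 3 comparisons. Signals near the floor limit DUSP4, ETV4 and SPRY2.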
